A study of Mus musculus with 10 samples.

Results

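Polyamine metabolism around Odc1 was examined in left ventricular tissue of mouse hearts through 10 named genes, all 10 of which were found by symbol among the 45706 genes of the deposited table. Odc1, Amd1, Srm and Sms make polyamines, Oaz1, Oaz2 and Azin1 regulate the first enzyme, and Sat1, Smox and Paox break polyamines down. The set was selected on the rescaled CPM of Odc1, which stood out in this same comparison, so the values of Odc1 are given as a description with no test, and the other 9 genes were tested. All 10 samples came from hearts that had undergone transverse aortic constriction (TAC), in which surgery narrows the aorta and puts the left ventricle under pressure. In 5 samples the mice had received osimertinib, a lung cancer drug that blocks the tyrosine kinase of the EGF receptor, and in 5 they had received placebo, labelled as vehicle. No unoperated hearts are analysed here, so the constriction is shared by every sample. The sources used here give no strain, age, dose or duration of treatment, and no label states that each sample is a separate animal. The p-values therefore measure only the spread between these samples. The study addressed how osimertinib harms the heart.

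Polyamines are small, positively charged molecules that bind RNA and DNA and are needed for translation and growth. Ornithine decarboxylase, encoded by Odc1, turns ornithine into putrescine, and Srm and Sms then add aminopropyl groups to form spermidine and spermine. When polyamines are abundant, the ribosome shifts frame on antizyme mRNA, and the full-length antizyme made in this way binds ornithine decarboxylase and delivers it to the proteasome. Azin1, the antizyme inhibitor, resembles ornithine decarboxylase, lacks its activity and draws antizyme away from the enzyme. In rodent hearts ornithine decarboxylase activity is known to go up under hypertrophic and adrenergic stimuli. Only mRNA was measured here, and neither the enzymes nor the polyamines were.

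The antizyme mRNAs carry the shift in their own sequence, which is shown because it sets Oaz1 and Oaz2 apart from every other gene of the set. The stretch around the shift site was read from GENCODE M21 transcripts on chromosome 10 for Oaz1 and chromosome 9 for Oaz2, and 36 of its 43 bases were the same in both. Capitals mark the codon TCC, the TGA stop codon of the first frame and the next base, which ends GAT, the first codon of the new frame.
Oaz1: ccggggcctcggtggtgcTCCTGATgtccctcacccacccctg
Oaz2: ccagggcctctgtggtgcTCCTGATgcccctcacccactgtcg

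The values are CPM, reads scaled to a common total per library, and each library was rescaled, dividing it by its median ratio to a library of geometric means. The median log2 fold change over all 12350 tested genes was then 0.01, against 0.27 in the deposited CPM. Fold changes are osimertinib over placebo on the log2(CPM + 0.5) scale, on which changes of low genes come out too small, and are given with the SE from limma. Depth lay between 15863265 and 21309296 reads per library. In placebo library 5, mitochondrial genes and their nuclear copies took 83.0% of the reads, against 45.05% to 63.7% in the other 9. It was divided by 0.4545 in the rescaling, against 0.9257 to 1.344 for the others. Some cell markers also differed between the groups, in ways that depended on the scaling. A call means an adjusted p under 0.05 in limma. Of all genes tested, 10.4% were called higher and 10.5% lower in rescaled CPM, and 6.62% and 0.13% in deposited CPM. The 8 cardiomyocyte markers summed to between 27864 and 47538 rescaled CPM in osimertinib and between 14158 and 33503 in placebo, with 1 of 8 called higher (Actc1). The 8 endothelial markers summed to between 1636 and 2114 in osimertinib and between 2117 and 2999 in placebo, with 2 of 8 called lower (Fabp4 and Egfl7). The 8 macrophage markers summed to between 222.3 and 289.3 in osimertinib and between 157.9 and 225.7 in placebo, with 2 of 8 called higher (Adgre1 and Lyz2). The 8 fibroblast and 8 mural cell markers overlapped between the groups and none was called. The 8 lymphocyte markers summed to at most 4.54 rescaled CPM in osimertinib and 3.52 in placebo and were too low to test. The 7 atrial markers summed to between 695.0 and 4576 in osimertinib and between 497.4 and 1386 in placebo, with Bmp10 at 0 in all 10 libraries. Nppa made up most of the low sums, at 685.4 to 1820 in osimertinib and 442.4 to 1081 in placebo. Myl7 ran from 0.288 to 1149 in osimertinib and from 0 to 267.3 in placebo. Whether Nppa came from atrial or ventricular cells was not tested. On the deposited values limma called 4 of 8 cardiomyocyte markers and 3 atrial markers higher, and no endothelial or macrophage marker in either direction. The median log2 fold change of the endothelial markers was -0.22 in rescaled and 0.06 in deposited CPM.

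Odc1 was about 2-fold higher in osimertinib than in placebo. It stood at 61.5, 65.5, 70.9, 64.7 and 76.1 rescaled CPM in osimertinib libraries 1 to 5, against 33.8, 29.8, 35.8, 36.9 and 29.4 in placebo libraries 1 to 5. The groups did not overlap, and the lowest osimertinib library lay well above the highest placebo library. The means were 67.8 ± 5.78 in osimertinib and 33.2 ± 3.43 in placebo (SD, n = 5 each), a fold of 2.03 and a log2 fold change of 1.02 ± 0.10 (SE). In the deposited CPM, where placebo library 5 had 13.4 and the other placebo libraries 34.2 to 40.0, the osimertinib libraries had 60.3 to 81.8 and the log2 fold change was 1.303 ± 0.32. Leaving out any 1 library moved the rescaled value to between 0.98 and 1.06, and the other settings tried moved it to between 0.83 and 1.303. Odc1 lies on chromosome 12 (GRCm38, 17544794 to 17551505, plus strand), with a small nucleolar RNA gene inside it on the same strand. It shared 31.3% of its 31-base words with other genes, mostly processed pseudogenes. Of these, the 11 measured copies came to between 0.426% and 0.697% of the Odc1 CPM in osimertinib and between 0.141% and 0.787% in placebo, so how reads were divided between Odc1 and its copies is uncertain.

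**Figure D1:**
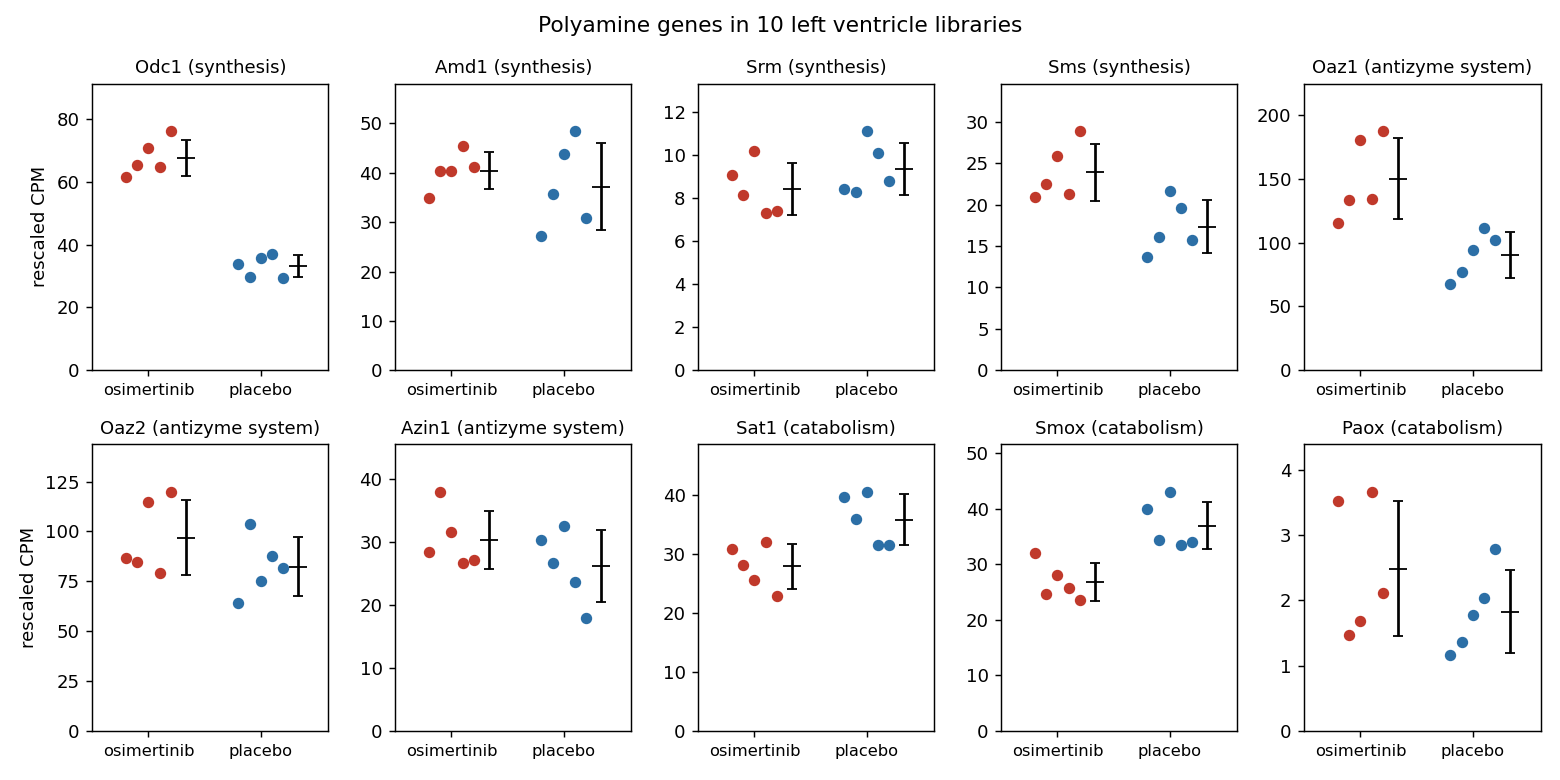
Rescaled CPM of the 10 polyamine genes, each in its own panel with an axis from 0, in 5 osimertinib (left, red) and 5 placebo libraries (right, blue), in the order of their numbers. The black bar beside each group is the mean ± SD, and the groups do not overlap for Odc1, Oaz1 and Smox.

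Of the 9 genes tested beside Odc1, 2 rose in osimertinib (Oaz1 and Sms) and 1 fell (Smox) by limma with Benjamini-Hochberg adjustment over all genes tested at 0.05. Among all genes tested, 20.8% were called, 10.4% higher and 10.5% lower, so 3 called genes of 9 is not far from that background. The median log2 fold change of the 9 was 0.22, the value of Azin1, against 0.01 over all genes. At an unadjusted p under 0.05 there were 2 higher and 2 lower. In the deposited CPM, where 6.74% of all genes were called, 6.62% higher and 0.13% lower, Oaz1 was called higher and no member lower, with 2 higher and 0 lower at an unadjusted p under 0.05. CPM without mitochondrial, nuclear copy and haemoglobin genes called 670 of all genes higher and 1730 lower, and of the members Oaz1 higher and Smox and Sat1 lower. Besides Odc1, the groups did not overlap for Oaz1 and Smox, and over all genes tested they did not overlap for 12.5%, 5.72% with osimertinib higher and 6.82% with osimertinib lower.

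Of the synthetic enzymes, Sms rose in osimertinib while Amd1 and Srm did not pass the test. Sms, spermine synthase, had 20.9, 22.4, 25.9, 21.3 and 28.9 rescaled CPM in the osimertinib libraries, against 13.7, 16.1, 21.6, 19.5 and 15.7 in the placebo libraries. All 5 osimertinib libraries lay above the placebo mean, but placebo library 3 overlapped the lower osimertinib libraries. Its means were 23.9 ± 3.40 in osimertinib and 17.3 ± 3.19 in placebo (SD, n = 5 each), with a log2 fold change of 0.46 ± 0.14 (limma, adjusted p = 0.0389). The call was lost without osimertinib library 2 (adjusted p = 0.0572), 3 (0.0991) or 5 (0.101) or placebo library 1 (0.0922), 2 (0.0863) or 5 (0.0648), in the deposited CPM (0.74 ± 0.32, adjusted p = 0.148), with no filter on low values (0.0673) and in CPM without mitochondrial, nuclear copy and haemoglobin genes (0.27, adjusted p = 0.0841). Sms lies on chromosome X (GRCm38, 157443855 to 157492287, minus strand), and its pseudogene copies came to at most 1.58% of its CPM in osimertinib and 2.67% in placebo.

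Amd1 supplies the aminopropyl donor, decarboxylated S-adenosylmethionine. It stood at 35.0, 40.3, 40.3, 45.5 and 41.1 rescaled CPM in osimertinib libraries, against 27.2, 35.7, 43.9, 48.4 and 30.9 in placebo libraries. The placebo libraries spanned the whole osimertinib range, with a log2 fold change of 0.15 ± 0.15 (limma, adjusted p = 0.510). Amd1 shared 82.8% of its 31-base words with other genes, and 81.9% with Amd2 alone, which had 0.130 ± 0.193 rescaled CPM in osimertinib and 0.0772 ± 0.0558 in placebo (SD, n = 5 each), so the division of reads between both genes is uncertain. Srm, spermidine synthase, ran from 7.31 to 10.2 rescaled CPM in osimertinib and from 8.30 to 11.1 in placebo. Its log2 fold change was -0.14 ± 0.13 (limma, adjusted p = 0.433), and in the deposited CPM its sign turned, at 0.12 ± 0.30 (adjusted p = 0.859). With the cardiomyocyte markers as a covariate the sign of Amd1 turned as well (-0.19, adjusted p = 0.536).

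In the antizyme system Oaz1 rose in osimertinib, and neither Oaz2 nor Azin1 passed the test. Oaz1, the most abundant antizyme, had 116, 134, 180.3, 135 and 187 rescaled CPM in the osimertinib libraries, against 67.5, 76.8, 94.1, 112 and 102 in the placebo libraries. The groups did not overlap, although osimertinib library 1 and placebo library 4 lay close together. Its means were 150.3 ± 31.6 in osimertinib and 90.4 ± 18.05 in placebo (SD, n = 5 each), a fold of 1.66 and a log2 fold change of 0.73 ± 0.17 (limma, adjusted p = 0.0195). The call also stood in the deposited CPM (1.02 ± 0.32, adjusted p = 0.0414), though there it was made in 5 of the 10 fits that leave out 1 library. In the rescaled CPM it was lost without osimertinib library 3 (0.66, adjusted p = 0.0590) or 5 (0.64, adjusted p = 0.0532) or placebo library 2 (0.68, adjusted p = 0.0523). Oaz1 lies on chromosome 10 (GRCm38, 80826656 to 80829290, plus strand), and its measured pseudogene copy came to at most 0.426% of its CPM in osimertinib and 0.942% in placebo.

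Oaz2, whose frameshift site is printed above beside that of Oaz1, had 86.5, 84.5, 115, 79.3 and 119.7 rescaled CPM in osimertinib libraries, against 64.0, 104, 75.2, 87.6 and 81.6 in placebo libraries. Osimertinib libraries 3 and 5 were the highest, and the other 3 lay within the placebo range. Its log2 fold change was 0.23 ± 0.16 (limma, adjusted p = 0.304). Azin1 had 28.4, 37.8, 31.5, 26.6 and 27.0 rescaled CPM in osimertinib libraries, against 30.3, 26.6, 32.5, 23.6 and 17.9 in placebo libraries. The groups overlapped, with placebo library 5 the lowest, and the log2 fold change was 0.22 ± 0.16 (limma, adjusted p = 0.330).

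Of the catabolic genes, Smox fell in osimertinib, and Sat1 and Paox did not pass the test. Smox, spermine oxidase, turns spermine back into spermidine and releases hydrogen peroxide. It had 32.1, 24.7, 28.2, 25.8 and 23.6 rescaled CPM in the osimertinib libraries, against 40.0, 34.5, 43.0, 33.4 and 34.1 in the placebo libraries. The groups did not overlap, and osimertinib library 1 came closest to placebo. Its means were 26.9 ± 3.39 in osimertinib and 37.0 ± 4.28 in placebo (SD, n = 5 each), with a log2 fold change of -0.46 ± 0.12 (limma, adjusted p = 0.0236). In the deposited CPM the log2 fold change was -0.18 ± 0.32 (adjusted p = 0.806), and the call was also lost without osimertinib library 3 (adjusted p = 0.0571) or 5 (0.0658) or placebo library 1 (0.0595). Smox lies on chromosome 2 (GRCm38, 131491496 to 131525922, plus strand) and shared none of its 31-base words with another gene.

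Sat1 encodes the acetyltransferase that marks spermidine and spermine for export or oxidation. It had 30.9, 28.1, 25.5, 32.0 and 22.9 rescaled CPM in osimertinib libraries, against 39.6, 35.9, 40.5, 31.5 and 31.5 in placebo libraries. Every osimertinib library lay under the placebo mean, but osimertinib library 4 lay above placebo libraries 4 and 5. The log2 fold change of -0.36 ± 0.12 missed the threshold (limma, adjusted p = 0.0540). It passed without osimertinib library 1 (adjusted p = 0.0489) or 4 (0.0438) or placebo library 4 (0.0485) or 5 (0.0488), with a mean of at least 5 CPM as the filter (0.0463), with array weights (0.0381), with the atrial markers as a covariate (0.0106) and in CPM without mitochondrial, nuclear copy and haemoglobin genes (-0.56, adjusted p = 0.0422). In the deposited CPM it was -0.08 ± 0.32 (adjusted p = 0.921). Paox, which oxidises the acetylated polyamines, was the lowest of the set, between 1.47 and 3.66 rescaled CPM in osimertinib and between 1.17 and 2.79 in placebo, with a log2 fold change of 0.33 ± 0.26 (limma, adjusted p = 0.360). It overlaps Echs1 on the opposite strand by 678 bases. The design text calls the libraries strand-specific, and whether counting used the strand is not given in the sources used here.

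**Figure D2:**
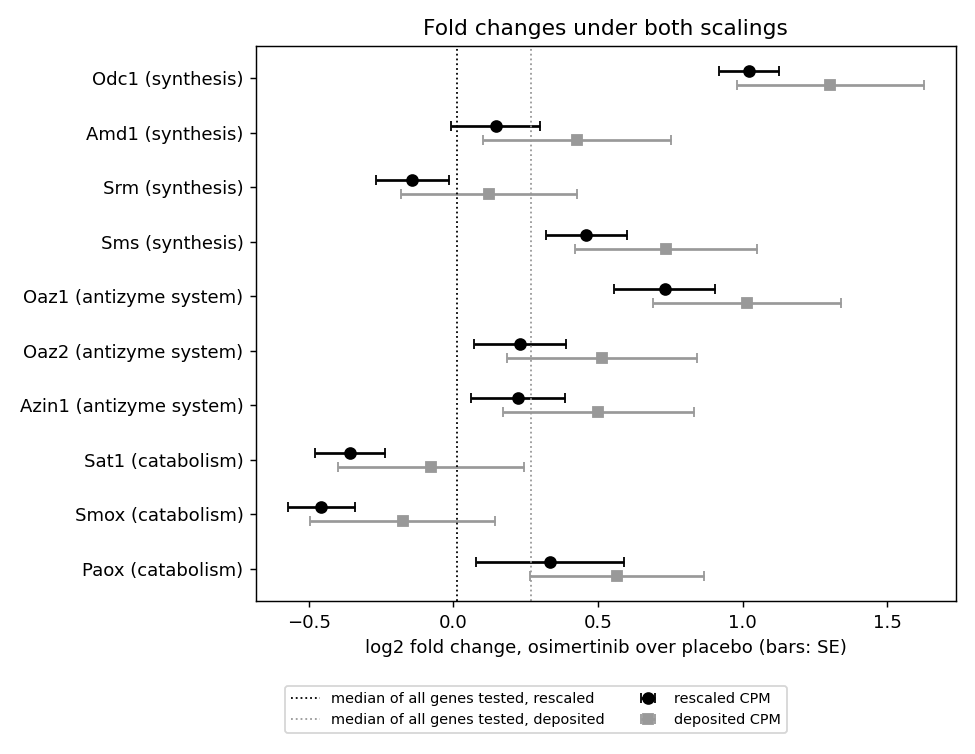
Log2 fold change, osimertinib over placebo, of each polyamine gene with its SE, in rescaled CPM (black circles) and deposited CPM (grey squares), with dotted lines at the median of all genes tested. The deposited values lie to the right of the rescaled ones for every gene, as do the medians of 0.27 and 0.01, and their bars are wider.

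The calls were also set beside the markers of cardiac cell types. Osimertinib libraries 3 and 5, with the highest cardiomyocyte sums of 43236 and 47538, also had the highest Odc1, Oaz1, Oaz2 and Sms. They had the lowest mean log2 atrial levels of the osimertinib group, 2.47 and 2.24 against 7.00 to 8.59 in the other 3. Placebo libraries 3 and 4 had the highest cardiomyocyte sums of their group, 30785 and 33503. Their atrial levels were also its lowest, 2.29 and 1.89 against 5.00 to 6.56. Among placebo libraries these had the highest Odc1 and Sms. Oaz1 was higher in placebo library 5 than in 3, and Oaz2 was highest in placebo library 2. In bulk tissue, fewer cells of a type and less RNA per cell cannot be told apart. With the mean log2 cardiomyocyte marker level as a covariate, an alternative added after these marker values were seen, Oaz1 had a log2 fold change of 0.34 (adjusted p = 0.278), Sms 0.10 (0.672) and Smox -0.40 (0.193). No member was called, with 1 higher and 1 lower at an unadjusted p under 0.05, and over all genes 119 were called. With the endothelial markers as the covariate, added likewise, the values were 0.46 for Oaz1 (adjusted p = 0.340), 0.21 for Sms (0.551) and -0.46 for Smox (0.254), the size of its value without a covariate, again with no member called. In that fit limma called 0 of all 12350 genes, with 1804 at an unadjusted p under 0.05. Both covariates differ between the groups, so the treatment and the covariate share part of their variation in these fits. The log2 fold change of Odc1 was 0.86 ± 0.11 with the cardiomyocyte and 0.94 ± 0.14 with the endothelial covariate. With the atrial markers as the covariate the calls stood, at 0.82 for Oaz1 (adjusted p = 0.000314), 0.54 for Sms (0.000638) and -0.46 for Smox (0.00638). That limma fit called 4866 of all 12350 genes, 2671 higher and 2195 lower, so low adjusted p were not particular to these members.

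Levels per kilobase of exon place Odc1 differently among its neighbours in the 2 groups. In osimertinib the order of mean rescaled CPM per kilobase was Oaz1 at 58.8 ± 12.3, Oaz2 at 32.4 ± 6.28, Odc1 at 19.9 ± 1.70, Amd1 at 11.4 ± 1.06, Sat1 at 10.1 ± 1.36, Smox at 6.90 ± 0.871, Srm at 5.27 ± 0.762, Azin1 at 4.84 ± 0.745, Sms at 3.98 ± 0.566 and Paox at 0.507 ± 0.210 (SD, n = 5). Amd1 and Sat1, and the neighbours among Smox, Srm, Azin1 and Sms, differed there by less than the sum of their SDs. In placebo the order was Oaz1 at 35.3 ± 7.05, Oaz2 at 27.5 ± 4.91, Sat1 at 12.9 ± 1.55, Amd1 at 10.5 ± 2.50, Odc1 at 9.74 ± 1.01, Smox at 9.50 ± 1.10, Srm at 5.84 ± 0.761, Azin1 at 4.18 ± 0.921, Sms at 2.88 ± 0.531 and Paox at 0.372 ± 0.130. Oaz1 and Oaz2 there, the neighbours among Sat1, Amd1, Odc1 and Smox, and those among Srm, Azin1 and Sms, differed by less than the sum of their SDs. Odc1 thus followed the antizymes directly in osimertinib. In placebo its mean stood below that of Sat1 and between those of Amd1 and Smox. From Amd1 and Smox it differed there by less than the sum of the SDs. Because Odc1 was picked on this contrast, its place in each order is a description only. The levels of Azin1 stayed well under those of both antizymes in both groups.

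Within a library a ratio of genes depends on the scaling between libraries only through the pseudocount, so ratios were taken on the deposited CPM. The log2 ratio of Odc1 to Smox was 1.32 ± 0.27 in osimertinib and -0.15 ± 0.17 in placebo, and that of Odc1 to Sat1 was 1.27 ± 0.31 in osimertinib and -0.11 ± 0.20 in placebo (SD, n = 5 each). Odc1 was above both catabolic genes in all 5 osimertinib libraries and under both in 4 of 5 placebo libraries, placebo library 4 being the exception. The difference between the groups was 0.29 against Oaz1, 0.57 against Sms, 0.74 against Paox, 0.79 against Oaz2, 0.80 against Azin1, 0.88 against Amd1 and 1.18 against Srm. The groups overlapped for the ratios to Oaz1 and Paox and for no other ratio of Odc1. These ratios hold Odc1 and are a description only.

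The 3 ratios without Odc1 were tested, and none passed after adjustment. The log2 ratio of Azin1 to Oaz1 was -2.01, -1.81, -2.50, -2.32 and -2.77 in osimertinib libraries, against -1.14, -1.52, -1.52, -2.22 and -2.44 in placebo libraries. The groups overlapped, and the difference in means was -0.51 (two-sided exact permutation test, p = 0.127, and 0.190 after adjustment over 3 ratios). The ratio of Amd1 to Sat1, synthesis against acetylation, was 0.53 ± 0.24 in osimertinib and 0.03 ± 0.41 in placebo, a difference of 0.50 with p = 0.0476 by the exact permutation test and an adjusted p of 0.143 (n = 5 each). Placebo library 4, at 0.61, lay within the osimertinib range, and without it the difference was 0.65 with an adjusted p of 0.0476. The ratio of Smox to Sat1 was -0.05 ± 0.19 in osimertinib and 0.05 ± 0.07 in placebo, a difference of -0.10 (exact permutation test, p = 0.325, adjusted p = 0.325, n = 5 each). The smallest p that 5 against 5 libraries allow is 0.00794.

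**Figure D3:**
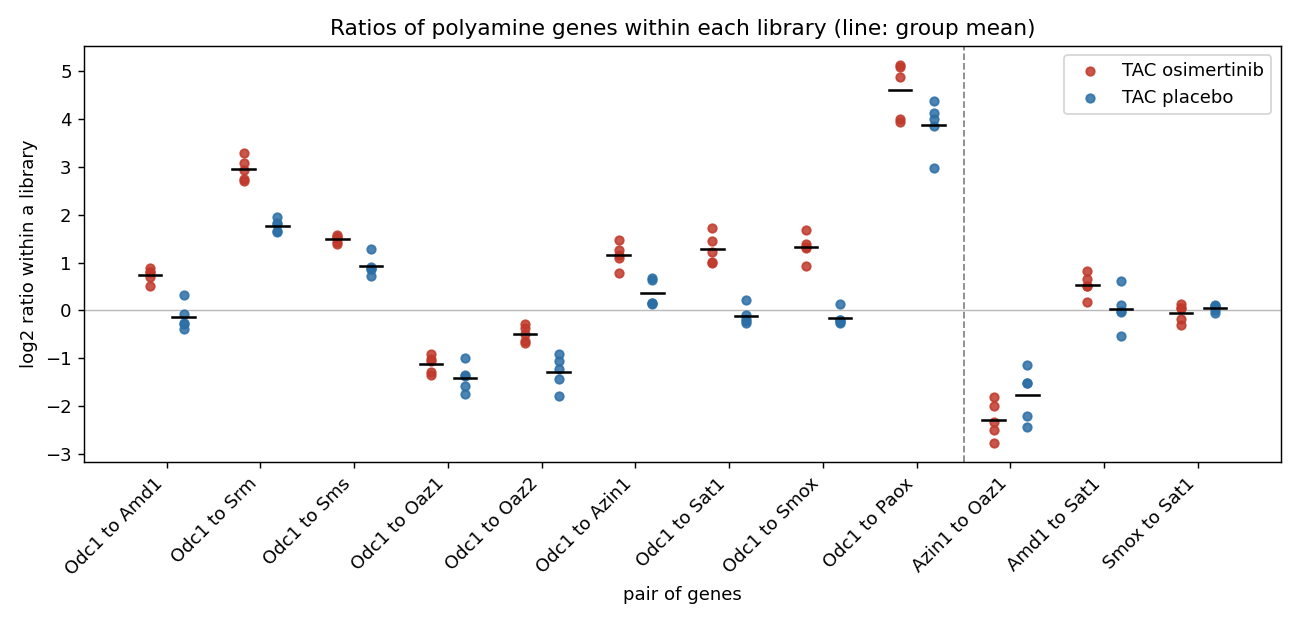
Log2 ratio of 2 polyamine genes within each library, in osimertinib (red, left of each pair) and placebo (blue, right), with the group mean as a black line. Left of the dashed line Odc1 is the numerator, with group means of 1.32 and -0.15 for Odc1 to Smox, and right of it stand the 3 ratios without Odc1, whose groups overlap.

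The genes whose profile over the 10 libraries was most like that of Odc1 were sought among 9035 named genes averaging 5 CPM or more, by the root mean square difference of centred log2 levels. The nearest were Ehd4, an endocytic membrane remodelling protein, at 0.108, Pgm5, a phosphoglucomutase-like protein of cell adhesion sites, at 0.148, Slco3a1, an organic anion transporter, at 0.164, Cpe, a carboxypeptidase that trims peptide hormones, at 0.164, and Oat, ornithine aminotransferase, at 0.170. Ehd4 averaged 120.2 rescaled CPM in osimertinib and 60.5 in placebo. Among the polyamine genes Oaz1 was the nearest at 0.264, with rank 117, followed by Sms at 0.314, with rank 454. Oaz2 at 0.464, Azin1 at 0.466, Amd1 at 0.480, Paox at 0.569 and Srm at 0.606 were farther, and Sat1 at 0.728 and Smox at 0.765 were the farthest. The measure uses the same contrast that picked Odc1, and is given as a description.

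**Figure D4:**
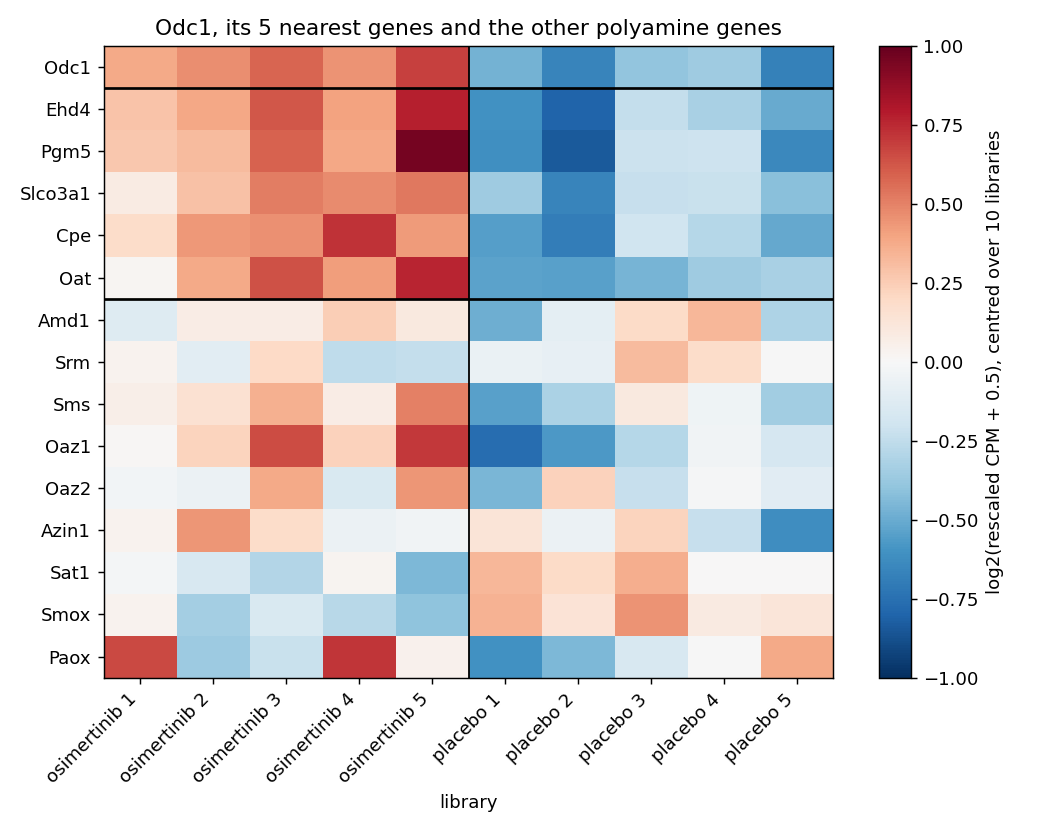
Colour gives log2(rescaled CPM + 0.5) of each gene centred over the 10 libraries, from blue (low) to red (high), for Odc1, its 5 nearest genes and the other polyamine genes, with the osimertinib libraries left of the black line and placebo libraries right of it. Odc1 and its nearest genes are red in osimertinib, except Oat and Slco3a1 in osimertinib 1, which are near white, and blue in placebo, while Sat1 and Smox run mostly the other way.

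The promoter windows of Odc1 and Oaz1 are shown because both genes were higher in osimertinib and Oaz1 is the gene of the set nearest to Odc1 in profile. They run from 250 bases before to 50 bases after the start of a RefSeq transcript (GRCm38.p6). The Odc1 window is chr12:17544623-17544922 and the Oaz1 window is chr10:80826406-80826705, both on the plus strand. Capitals mark TGACG, the core of the cAMP response element, which was put in capitals after the counts of all 3 motifs searched were seen.
Odc1: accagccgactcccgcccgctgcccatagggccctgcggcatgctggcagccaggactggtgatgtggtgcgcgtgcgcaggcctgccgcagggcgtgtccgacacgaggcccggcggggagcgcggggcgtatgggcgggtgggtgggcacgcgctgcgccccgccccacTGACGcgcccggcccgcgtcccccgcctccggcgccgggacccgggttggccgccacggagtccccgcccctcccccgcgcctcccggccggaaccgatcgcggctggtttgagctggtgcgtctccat
Oaz1: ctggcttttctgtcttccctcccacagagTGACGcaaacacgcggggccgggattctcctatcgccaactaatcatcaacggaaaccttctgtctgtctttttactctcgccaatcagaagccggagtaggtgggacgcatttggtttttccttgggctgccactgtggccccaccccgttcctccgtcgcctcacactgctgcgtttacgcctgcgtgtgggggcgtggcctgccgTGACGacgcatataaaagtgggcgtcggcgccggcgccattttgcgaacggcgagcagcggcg

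Of the 10 genes 8 had a window, Azin1 and Srm having none in the table. On either strand TGACG occurred 1 time in Odc1, 1 time in Amd1 and 2 times in Oaz1, and in none of the windows of Sms, Oaz2, Sat1, Smox and Paox, while 20.8% of all 32851 promoter windows held it. The E-box CACGTG, which Myc and Max bind, was in 1 of the 2 Sms windows and in no other window of the set, against 7.15% of all windows. The GC box GGGCGG occurred 4 times in Odc1, 1 time in Amd1, 4 times in Oaz2, 2 times in Sat1, 6 times in Smox, 3 times in each Paox window and 4 times in 1 of the 2 Sms windows, and did not occur in Oaz1, against 35.7% of all windows with at least 1. These are matches of letters and no measurement of binding. Sequence outside these windows was not searched, so a motif absent here may lie elsewhere in a gene.

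Around the core set, 56 genes in 6 lists feed, carry or regulate polyamines, and 40 of them were tested. Limma called 9 higher and 4 lower in osimertinib, against 10.4% and 10.5% of all genes, with a median log2 fold change of 0.13 against 0.01. In the deposited CPM 6 were called higher (Oat, Apip, Adi1, Gpc1, Maob and Nqo1) and 0 lower. When all genes above 0 were tested, Apip, Adi1, Mtr, Eif5a, Max and Mnt lost their call, at an adjusted p between 0.0545 and 0.0851. In CPM without mitochondrial, nuclear copy and haemoglobin genes Mat2b, Mtr and Eif5a lost it. None of the 40 was called with the cardiomyocyte or the endothelial markers as a covariate, with 8 and 9 of them at an unadjusted p under 0.05 in these limma fits. Oat, Nos3, Mat2b, Maob and Nqo1 were called in all 10 fits that leave out 1 library, and the others lost their call in some.

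Of the ornithine supply genes 7 of 11 were tested, with 1 higher and 1 lower and a median of -0.01. Oat, which interconverts ornithine and glutamate semialdehyde and so competes with Odc1 for ornithine, had 59.5, 76.5, 91.4, 78.4 and 99.5 rescaled CPM in osimertinib libraries, against 40.3, 40.0, 42.2, 45.6 and 46.7 in placebo libraries. The groups did not overlap, with a log2 fold change of 0.89 ± 0.13 (limma, adjusted p = 0.00867) and of 1.17 in the deposited CPM (adjusted p = 0.0169). Nos3, the endothelial nitric oxide synthase, which uses arginine, had 100.5, 91.2, 74.8, 81.6 and 70.5 rescaled CPM in osimertinib libraries, against 154, 124, 116, 111 and 135 in placebo libraries. The groups did not overlap either (-0.61 ± 0.13, limma, adjusted p = 0.0157), but in the deposited CPM the difference did not pass (-0.33, adjusted p = 0.610). Nos3 is an endothelial gene. The sums of the endothelial markers given above came close but did not overlap, at up to 2114 in osimertinib and from 2117 in placebo. Fabp4 (641 rescaled CPM in osimertinib and 1071 in placebo) and Egfl7 (231.5 in osimertinib and 404 in placebo) made up most of the difference between the mean sums. Flt1 (-0.29), Cdh5 (-0.24), Emcn (-0.20), Tek (-0.15), Pecam1 (-0.09) and Kdr (-0.05) were also lower in rescaled CPM but did not pass the test. With the endothelial markers as a covariate the log2 fold change of Nos3 was -0.41 ± 0.15 (limma, adjusted p = 0.270). Fewer endothelial cells and less Nos3 RNA per cell cannot be told apart in this bulk tissue, and the cause was not tested. The arginine transporter Slc7a1 (0.24, adjusted p = 0.262) and the argininosuccinate synthase Ass1 (-0.14, adjusted p = 0.471) did not pass in limma, and the arginases Arg1 and Arg2 were too low to test, at means of at most 0.0312 rescaled CPM in osimertinib and 0.101 in placebo.

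The methionine cycle and salvage list makes S-adenosylmethionine for Amd1 and recovers the methylthioadenosine left by Srm and Sms. It had 4 of 10 tested genes higher and 1 lower, against 10.4% and 10.5% of all genes, with a median of 0.35. Mat2b, the regulatory subunit of methionine adenosyltransferase, averaged 31.3 ± 2.28 rescaled CPM in osimertinib and 21.7 ± 2.64 in placebo (SD, n = 5 each; 0.53 ± 0.11, limma, adjusted p = 0.0140), without overlap between the groups. Mat2a, the catalytic subunit, did not pass (-0.06, adjusted p = 0.824, and 0.21 in the deposited CPM). The salvage enzymes Apip (1.12 ± 0.30, adjusted p = 0.0278) and Adi1 (0.74 ± 0.21, adjusted p = 0.0303) and the methionine synthase Mtr (0.62 ± 0.17, adjusted p = 0.0314) rose in limma. Ahcy, which clears S-adenosylhomocysteine, missed the threshold (0.37, limma, adjusted p = 0.0566) although its groups did not overlap, and passed without placebo library 3 (0.0336). Without osimertinib library 3 or 5 or placebo library 1 or 2, Apip, Adi1 and Mtr all lost their call. Adi1 and Mtr also lost it without placebo library 5, and Mtr without osimertinib library 2. Over these fits the highest adjusted p was 0.0782 for Apip, 0.0830 for Adi1 and 0.0846 for Mtr.

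Spermidine is the donor for hypusine, an amino acid made on the translation factor eIF5A. Eif5a, which encodes that factor, had 124, 126, 174, 119 and 203 rescaled CPM in osimertinib libraries, against 85.3, 83.5, 113, 113 and 116 in placebo libraries. It rose without overlap between the groups (0.52 ± 0.17, limma, adjusted p = 0.0492) and kept its call in 3 of the 10 fits that leave out 1 library, losing it without osimertinib library 2, 3 or 5 or placebo library 1, 2, 4 or 5, at an adjusted p of up to 0.124. The call was also lost with no intensity trend (adjusted p = 0.0558) and with voom on estimated reads (0.0547). The modifying enzymes Dhps (0.43, adjusted p = 0.0750) and Dohh (0.38, adjusted p = 0.0875) did not pass in limma, though Dhps passed without osimertinib library 1 (0.0430) and Dohh without placebo library 4 (0.0418). All 4 genes of this list were tested, with 1 higher, 0 lower and a median of 0.40.

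Of the transport genes 6 of 11 were tested, with 1 higher, 0 lower and a median of 0.03. Gpc1, glypican-1, a heparan sulphate proteoglycan that takes part in polyamine uptake, averaged 113.8 ± 22.7 rescaled CPM in osimertinib and 66.9 ± 18.5 in placebo (SD, n = 5 each; 0.79 ± 0.21, limma, adjusted p = 0.0254). Its call was lost without osimertinib library 3 or 5 or placebo library 1 or 2, at an adjusted p of up to 0.0724. Cav1 (-0.17, adjusted p = 0.437) and Slc3a2 (-0.04, adjusted p = 0.840) did not pass in limma, and both had the other sign in the deposited CPM, at 0.12 and 0.24. Among the other antizyme and catabolic genes, 5 of 9 were tested, with 1 higher, 0 lower and a median of 0.05. Maob, a monoamine oxidase that also acts on acetylated putrescine, averaged 16.5 ± 5.02 in osimertinib and 8.23 ± 2.25 in placebo (SD, n = 5 each; 0.96 ± 0.21, limma, adjusted p = 0.0162), without overlap. Aldh9a1, which oxidises aminobutyraldehyde, missed the threshold (-0.48, limma, adjusted p = 0.0545) and passed in 3 of the 10 fits that leave out 1 library, with a lowest adjusted p of 0.0215. Aoc3 did not pass (0.05, adjusted p = 0.815).

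Among the 8 genes of the regulator list, all tested, 1 rose and 2 fell, with a median of -0.08. Myc, a transcription factor that activates Odc1, had 3.61 ± 0.705 rescaled CPM in osimertinib and 3.46 ± 1.46 in placebo (SD, n = 5 each; 0.12 ± 0.24, limma, adjusted p = 0.747). Its partner Max fell (-0.49 ± 0.15, limma, adjusted p = 0.0357), as did Mnt, a repressor that also pairs with Max (-0.46 ± 0.13, adjusted p = 0.0309). Both lost their call without osimertinib library 3 or 5 or placebo library 1, 2 or 4, and Max also without osimertinib library 2, at an adjusted p of up to 0.0970 for Max and 0.0799 for Mnt, and neither was called in the deposited CPM. Nqo1, a quinone reductase that protects ornithine decarboxylase from ubiquitin-independent degradation, averaged 15.6 ± 6.37 in osimertinib and 5.60 ± 1.69 in placebo (SD, n = 5 each; 1.36 ± 0.28, limma, adjusted p = 0.0144), without overlap. Mxd4, another partner of Max (-0.35, adjusted p = 0.0711), and the ubiquitin gene Ubb (0.25, adjusted p = 0.207) did not pass in limma.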

How the data were processed

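Poly(A) RNA of 10 left ventricle samples was sequenced. The deposited values are CPM that the authors scaled to each library's total of 1000000. The design text names STAR alignment to GRCm38 and RSEM. The submitters' processing notes instead name cutadapt 1.9, HISAT2 2.0.4, StringTie 1.3.4d, DESeq2 and the build hg38. Of the gene identifiers, 98.8% (45143 of 45706) matched GENCODE M21, which gave exon lengths, coordinates and the names of copies. The gene symbols came from the deposited table.

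Depth was estimated from the spacing of the CPM. Of values under 200 reads, 90.7% to 93.4% were whole to 0.01 read, as estimated counts would be, so the leading test was not a count test. Voom on these estimated reads was run only as an alternative. Low genes such as Paox are the least precise, and no interval was given, as depth is an estimate. Every pair of libraries differed beyond sampling noise, by a chi-square of at least 23.9 times its degrees of freedom.

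Rescaled CPM were tested with limma 3.58.1 in R 4.3.3, with an intensity trend, two-sided, on genes reaching 1 CPM in 5 or more libraries, and adjusted by Benjamini-Hochberg. The fit was tested on simulated data. The named genes are the members, the called genes of 6 lists, the 2 highest uncalled genes of each list and the 5 genes nearest to Odc1, and 1 called gene is not reported here. Myc, Amd2, Arg1 and Arg2 were named after their values were seen. A pseudogene or paralog counted as a copy at 2% or more of a gene's 31-base words, a threshold chosen after the counts were seen. Members, lists, the rescaling as the leading scale and the tests were chosen with earlier results of these data known. The alternatives varied the scaling, pseudocount, filter, variance model, covariates, replicate block and libraries.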

Additional observations from a re-analysis of the deposited data

How the results depend on the processing

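Odc1 was higher in osimertinib under all 24 alternatives, between 0.83 and 1.303 on the log2 scale. This is a description only, because Odc1 was picked on this contrast. Oaz1, Sms, Smox and Sat1 also kept their direction under all alternatives. Of 9 tested members, 3 were called. The deposited CPM called 1 (1 higher, 0 lower), 6 genes of the wider lists (0 lower) and 833 of all genes (817 higher, 16 lower). CPM without mitochondrial, nuclear copy and haemoglobin genes gave 1 member higher and 2 lower, 670 of all genes higher, 1730 lower and a median of -0.17 over all genes. No filter on low values gave 1 member higher, 7 wider genes (1 lower) and 1263 of all genes (545 higher, 718 lower). The 5 CPM filter, array weights and the atrial covariate gave 2 members lower, and the last called 4866 genes (2671 higher, 2195 lower). The covariates added after seeing the data, cardiomyocyte and endothelial markers, each called 0 members and 0 wider genes. Over all genes the first called 119 (89 higher, 30 lower) and the second 0, with 1804 at an unadjusted p under 0.05. The cause was not tested.

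Leaving out 1 library gave 0 to 4 members (0 to 2 higher, 0 to 2 lower), 5 to 15 wider genes (4 to 10 higher, 1 to 5 lower) and 512 to 2807 of all genes (213 to 1566 higher, 299 to 1362 lower). No member was called without osimertinib library 3 or 5, with 2 higher and 2 lower at an unadjusted p under 0.05 in each limma fit, and 512 genes were called without library 3 and 690 without library 5. The log2 ratio of Amd1 to Sat1 ran between 0.36 and 0.65, called without placebo library 4.

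Signs turned for some genes that were not called. In the deposited CPM these were Srm (0.12), Ass1 (0.12), Mat2a (0.21), Cav1 (0.12), Slc3a2 (0.24), Asl (0.23), Aldh18a1 (0.24), Atp13a2 (0.23) and Maoa (0.20). The other settings were examined for the genes named in the report. Quantile normalization turned Ubb (-0.089). CPM without mitochondrial, nuclear copy and haemoglobin genes turned Amd1 (-0.048) and Aoc3 (-0.14). The atrial covariate turned Mat2a (0.0047). The cardiomyocyte covariate turned Amd1 (-0.19), Oaz2 (-0.010), Slc7a1 (-0.0021), Ass1 (0.060) and Cav1 (0.030), and the endothelial covariate Amd1 (-0.16), Paox (-0.0055), Cav1 (0.13) and Aoc3 (-0.14). Leaving out 1 library turned Aoc3 (-0.027 to 0.11), Slc3a2 (-0.11 to 0.015) and Mat2a (-0.25 to 0.025).

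No label states that samples of the same number are paired, and the values do not settle it. Same-numbered samples correlated at 0.43, 0.24, 0.46, -0.34 and -0.16 in their deviations from the group means, and 5 of 10 samples correlated best with their own number. With the replicate block 2949 of all genes (1594 higher, 1355 lower), 17 wider genes (12 higher, 5 lower) and 2 members higher and 1 lower were called, and the adjusted p of the ratios under the block was 0.188, 0.188 and 0.313, where 5 pairs allow no p under 0.0625.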

Other observations

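Slc22a3, an organic cation transporter that carries polyamines, was too low for the filter on tested genes, with at least 1 CPM in 4 libraries. It had 0.954, 1.01, 1.15, 1.10 and 1.297 rescaled CPM in osimertinib libraries, against 0.374, 0.610, 0.557, 0.787 and 0.413 in placebo libraries. The groups did not overlap. When all genes above 0 were fitted, its log2 fold change was 0.62 ± 0.14 (SE). Slc22a3 was picked from the 16 untested genes of the 6 lists after its values were seen. Its values are therefore given as a description with no test.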
